A study of Mus musculus with 8 samples.

Results

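The class III PI3-kinase is a lipid kinase complex whose subunits were followed here in bone marrow-derived macrophages (BMDMs) that had or lacked Nudt21, the RNA-binding subunit of cleavage factor Im. The 8 genes were chosen by symbol, namely Becn1, Pik3c3, Pik3r4, Atg14, Uvrag, Ambra1, Rubcn and Nrbf2. All 8 of them were found among the 21080 genes of the expression tables, and all 8 had enough coverage to be tested. RNA was taken from WT and Nudt21-cKO BMDMs at 0 h, without stimulation, and from both genotypes after IFNγ overnight followed by LPS for 4 h. The 4 groups had 2 libraries each, and each library pooled the cells of 2 mice. The same sample numbers recur at 0 h and 4 h within a genotype, and whether such libraries came from the same pool is not stated. The cKO mice were Nudt21 fl/fl with LysM-Cre, in which Cre under the myeloid lysozyme M promoter removes floxed exons of Nudt21, and the WT mice were sex-matched littermates that also carried LysM-Cre. All mice were on the C57BL/6 background, all cultures were grown with M-CSF, and the age of these mice is not given in the sources used here. The labels name the stimulation for the 0 h samples too, and these were taken as unstimulated from their titles.

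Class III PI3-kinase makes phosphatidylinositol 3-phosphate (PI3P), a lipid mark of endosomes and of the membrane from which autophagosomes form. Its catalytic subunit Vps34, encoded by Pik3c3, is held by the pseudokinase scaffold Vps15, encoded by Pik3r4, together with Beclin 1, encoded by Becn1. Atg14 directs this core to autophagosome formation as complex I, which Nrbf2 also binds, whereas Uvrag takes the place of Atg14 in complex II, which acts on endosomes and on autophagosome maturation. Rubicon, encoded by Rubcn, binds the Uvrag complex, restrains autophagosome maturation and is needed for LC3-associated phagocytosis in macrophages. Ambra1 binds Beclin 1 and also serves as a substrate receptor of a cullin 4 ubiquitin ligase that degrades D-type cyclins.

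Expression was taken as the mean read coverage per base of a gene, since the values name no unit. On that reading it is per length, so levels can be compared between genes, and nothing in the values points to scaling for sequencing depth. A mean over the bases of a gene also varies with the length of 3'UTR in use. Values of cKO against WT thus combine 3'UTR length and abundance, which were not separated here. Summed over all genes, coverage ranged from 14950347 to 17954882 per library, and 14737 to 16486 genes had a value above 0. On the deposited scale most genes shifted, the median log2 fold change over the 16284 genes tested being -1.24 (log2) for stimulation in WT, -1.03 for stimulation in cKO, 0.28 for cKO against WT at 4 h and 0.09 at 0 h. With all libraries scaled to equal summed coverage, these medians were -1.19, -1.07, 0.07 and -0.01. Each library was therefore centred on the median level of its genes before testing, which takes out such a common shift. The source of the shift was not tested. A centred log2 fold change is thus relative to the library median. This is not the median of the fold changes, which after centring was still 0.23 for stimulation in WT, 0.17 in cKO and -0.08 for cKO against WT at 4 h. Where the direction differs for the 8 genes, the value on the deposited scale is given beside the centred one or in the last section. Tests were made with limma on all 8 libraries, and a gene was called at a Benjamini-Hochberg adjusted p under 0.05 over all 16284 genes. Nudt21, the deleted gene, had a coverage of 718 and 641 in the WT libraries and of 158 and 172 in the cKO libraries at 0 h. The 4 h libraries gave 547 and 575 for WT, with 142 and 115 for cKO. Its centred log2 fold change was -2.13 at 0 h (SE 0.13, limma adjusted p = 0.00376) and -2.49 at 4 h (SE 0.13, limma adjusted p = 0.00236). The coverage is over the whole gene, including exons outside the floxed part. All 7 macrophage markers, including Adgre1, Csf1r and Cd68, had coverage in every group, with a sum of 118000 to 132000 per library at 0 h and of 57100 to 59600 in WT and 65300 to 70500 in cKO at 4 h. Within this list the genotypes differed in both directions, since Adgre1 had a mean coverage of 22290 in WT and 14060 in cKO at 0 h and of 12850 and 9313 at 4 h, whereas Cd68 had 44210 and 71410 at 0 h and 12730 and 26820 at 4 h. T cell markers summed to at most 3.86, B cell markers to at most 4.36 and erythroid markers to at most 10.9, and mast cell markers to 26.7 to 36.4. The 3 dendritic cell markers summed to 5.19 to 7.18 at 0 h and to 23.3 to 60.9 at 4 h, while the 5 neutrophil markers, mostly S100a8 and S100a9, summed to 14900 to 28200 and the 3 fibroblast markers to 15.2 to 203. Of these, Ly6g was at 0.00 in cKO at 0 h and at most 3.68 in the group means, while the granule genes Mpo and Elane had means of 251 and 375 in WT and of 280 and 418 in cKO at 0 h, and of 101 and 100.2 in WT and of 76.5 and 90.6 in cKO at 4 h. Cd3e was at 0.00 in all groups but cKO at 4 h. The part of these markers and of such cells in the results below was not tested.

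Nudt21 recognizes UGUA in the 3'UTR (written TGTA in genomic sequence), and all 8 genes hold this motif in their annotated 3'UTRs (GENCODE M21 on GRCm38). The number of motifs was 21 in the 2861 bases of Becn1, 11 in the 1943 bases of Atg14, 11 in the 2869 bases of Uvrag, 9 in the 2261 bases of Rubcn, 6 in the 770 bases of Nrbf2, and 4 each in the 1026 bases of Ambra1, the 389 bases of Pik3c3 and the 246 bases of Pik3r4. Per kilobase the density was 16.3 in Pik3r4, 10.3 in Pik3c3, 7.79 in Nrbf2, 7.34 in Becn1 and 5.66 in Atg14, and it was 3.98 in Rubcn, 3.90 in Ambra1 and 3.83 in Uvrag. Over the 12650 expressed genes with a 3'UTR of at least 100 bases, the median density was 5.16 and 90.2% held at least 1 motif. The motif was thus common to nearly all genes, and its density among the 8 genes lay on both sides of the median. Stretches of 30 bases that hold 2 or 3 motifs are shown for 4 genes, 5′ to 3′ on the gene's strand with the motif in capitals, because they show how matches to the sequence that the deleted factor binds lie close together. The motifs of Pik3c3 also come as near as this, and its sequence is not shown.
Becn1: ttttaTGTAtatgagTGTAcTGTAcctgtc
Pik3r4: TGTAtaaaatgcTGTAaaattcgaaaTGTA
Uvrag: cacatatccaTGTAtTGTAaagaagaataa
Ambra1: aatcctgaacTGTAcgTGTAgtttttagtg
They lie at chr11:101286699-101286728 on the minus strand, chr9:105687298-105687327 on the plus strand, chr7:98886769-98886798 on the minus strand and chr2:91918656-91918685 on the plus strand of GRCm38. The Becn1 stretch lies 747 bases before the annotated end of the transcript, the Uvrag stretch 1748, the Pik3r4 stretch 204 and the Ambra1 stretch 164. A match is a description of the sequence, and binding was not measured.

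**Figure D1:**
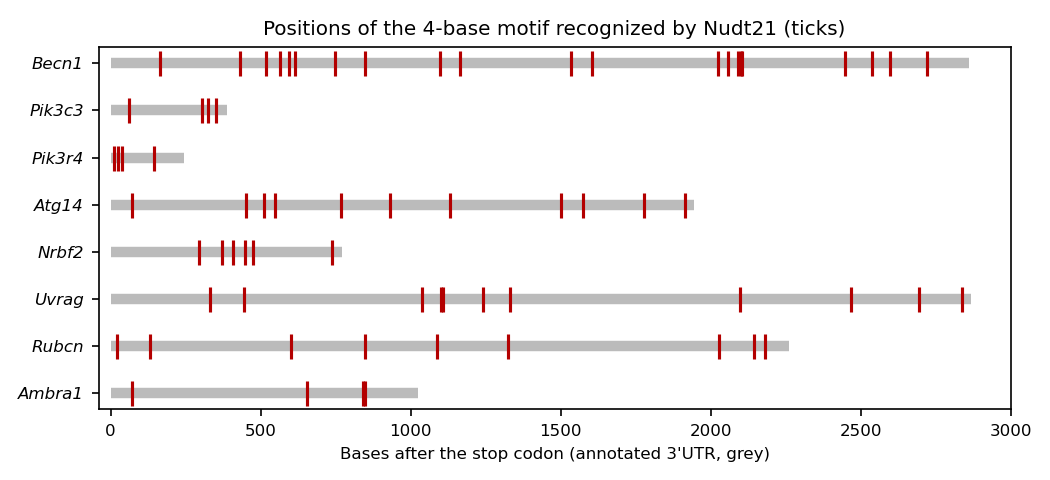
Map of the annotated 3'UTRs of the 8 genes (grey bars, in bases after the stop codon) with each UGUA motif as a tick. Becn1 holds 21 motifs over 2861 bases, and Pik3r4 holds 4 within 246 bases.

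Promoter sequences of 300 bases around the start site (RefSeq, GRCm38.p6) were found for 6 of the genes, Ambra1, Uvrag, Pik3r4, Nrbf2, Atg14 and Rubcn. They were searched on both strands for CACGTG, the palindromic E-box core to which the lysosome and autophagy regulators Tfeb and Tfe3 bind in CLEAR elements, and for 2 copies of GAAA set 2 bases apart, the paired half-sites bound by interferon regulatory factors. The E-box core was found once in the promoters of Atg14 and Nrbf2 and in 1 of the 2 promoters of Rubcn, and in 7.15% of all 32851 promoters. The interferon-type motif was found in 0 of the members' promoters and in 3.44% of all. The 3 matches are shown with the E-box core in capitals and 12 bases on either side, 5′ to 3′ on the gene's strand, since they are the members' only matches in these windows to either motif.
Atg14: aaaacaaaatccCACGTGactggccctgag
Nrbf2: gacccggctcatCACGTGacagccgccgcc
Rubcn: cgcctagcacatCACGTGtacccaggttag
They lie at chr14:47568418-47568447, chr10:67285472-67285501 and chr16:32868437-32868466, all on the minus strand. The letters show a match only and say nothing of whether a factor was bound.

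The order of the 8 genes by coverage differed between the times. Becn1 was the highest in every group, at the 85.3rd to 87.1st percentile of all genes tested. At 0 h Uvrag came next, followed by Pik3c3, and Atg14 was the lowest. At 4 h Ambra1 and then Nrbf2 followed Becn1, and Rubcn was the lowest, at the 46.0th percentile in WT and the 44.3rd in cKO, against the 74.2nd and 66.2nd at 0 h. Some neighbours in this order overlapped between libraries and are not ordered here, namely Rubcn, Pik3r4, Nrbf2 and Ambra1 in WT at 0 h, Pik3r4 with Ambra1 and Rubcn with Nrbf2 in cKO at 0 h, and Uvrag with Pik3c3 in WT at 4 h.

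**Figure D2:**
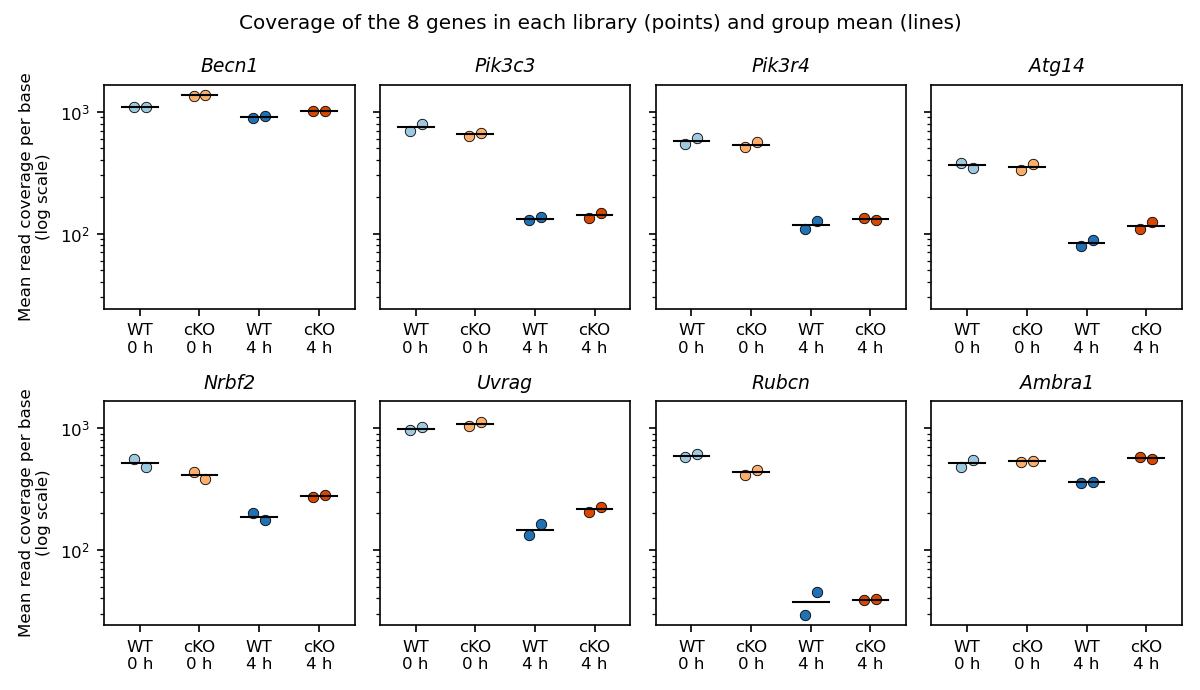
Mean read coverage per base (log axis) of each gene in the 8 libraries, with points for libraries and lines for the mean of 2 libraries per group. Pik3c3, Pik3r4, Atg14, Uvrag and Rubcn lie far lower at 4 h than at 0 h in both genotypes, whereas Becn1 and Ambra1 differ less between the times.

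Stimulation was compared within each genotype to see how the complex is set in resting and in activated macrophages. Of the 8 genes, 5, namely both kinase subunits, both complex-defining subunits and Rubcn, fell relative to the library median in WT and in cKO. Becn1 and Ambra1 rose relative to the library median, but neither was called higher on the deposited scale or with equal summed coverage. In WT, 5 of 8 genes were called lower and 2 higher, where 22.9% of all genes tested were called lower and 37.3% higher (60.2% in either direction). In cKO, 5 were called lower and 3 higher, where 23.1% and 35.5% of all genes were (58.6% in either direction). The median centred log2 fold change of the 8 genes was -0.74 in WT and -0.61 in cKO, against 0.23 and 0.17 for all genes tested. On the deposited scale all 8 genes were called lower in WT, where 58.2% of all genes were, and 7 of 8 in cKO, all but Ambra1, where 54.5% were. On this scale 22.7% of all genes in WT and 24.1% in cKO had a log2 fold change above 0. Lower coverage at 4 h is thus not particular to these genes. The share of all genes whose times did not overlap was not taken. In these bulk cultures, fewer cells of a type and less RNA per cell cannot be told apart. Values at 0 h and 4 h come from separate tables, which name no unit and were taken to hold the same one.

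The kinase subunits moved together. Pik3c3, the catalytic subunit (chr18:30272747-30348126, plus strand), had a coverage of 699 and 795 in WT and of 635 and 668 in cKO at 0 h. At 4 h it was 129 and 137 in WT and 134 and 148 in cKO. Every 4 h library was below every 0 h library. Relative to the library median, the log2 fold change was -1.02 in WT (SE 0.13, limma adjusted p = 0.00151) and -1.01 in cKO (SE 0.13, limma adjusted p = 0.00177), and the mean coverage in WT was 5.63-fold higher at 0 h than at 4 h. Pik3r4, the scaffold that holds Vps34 (chr9:105642978-105687657, plus strand), stood at 539 and 613 in the WT libraries of 0 h and at 509 and 562 in those of cKO. At 4 h it was 109 and 126 in WT and 133 and 129 in cKO. Again no 4 h library reached a 0 h library. Its centred log2 fold change was -0.82 in WT (SE 0.10, limma adjusted p = 0.00149) and -0.83 in cKO (SE 0.10, limma adjusted p = 0.00162). The ratio of Pik3r4 to Pik3c3 within a library, which does not depend on depth, was between 0.771 and 0.995 in all 8 libraries. The libraries of 0 h lay between 0.771 and 0.842 and those of 4 h all above them, between 0.850 and 0.995.

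Becn1 parted from the kinase. Becn1, the Beclin 1 subunit of both complexes (chr11:101285952-101302286, minus strand), had a coverage of 1092 and 1091 in WT and of 1339 and 1380 in cKO at 0 h. At 4 h it was 886 and 922 in WT and 1022 and 1014 in cKO. Its levels were thus lower at 4 h in both genotypes, and its deposited fold change was smaller than the median over all genes. The centred log2 fold change was 1.19 in WT (SE 0.10, limma adjusted p = 0.000378) and 0.78 in cKO (SE 0.10, limma adjusted p = 0.00181), while on the deposited scale it was -0.27 and -0.42, both called. The ratio of Becn1 to Pik3c3 was 1.47 ± 0.13 (SD, n = 2) in WT and 2.09 ± 0.030 in cKO at 0 h, and 6.82 ± 0.096 in WT and 7.24 ± 0.57 in cKO at 4 h. The 4 libraries of 4 h lay between 6.75 and 7.64 and those of 0 h between 1.37 and 2.11. Becn1 shares 10366 bases of its locus with Cntd1 on the opposite strand, and the library kit does not mark strand, so that reads of both genes cannot be told apart there. Cntd1 itself had a coverage of 1.74 to 7.63.

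Atg14, the autophagosome-specific subunit (chr14:47540893-47570649, minus strand), stood at 382 and 344 in the WT libraries of 0 h and at 331 and 370 in those of cKO. The 4 h values were 79.2 and 87.9 for WT, with 109 and 123 for cKO. All 4 h libraries were below all 0 h libraries. Atg14 shares 2238 bases with Gm49004 on the opposite strand, whose coverage was 0.144 to 1.5. Relative to the library median, Atg14 changed by -0.65 (log2) in WT (SE 0.12, limma adjusted p = 0.00573) and -0.39 in cKO (SE 0.12, limma adjusted p = 0.0349). The call in cKO was lost without either 0 h cKO library (limma adjusted p = 0.109 and 0.144), without cKO replicate 3 at 4 h (0.152), with no filter on low values (0.0952) and in a fit of only the 4 cKO libraries (0.0634), among 6 of 18 alternative settings that did not call it. Nrbf2, which binds complex I through Atg14 (chr10:67266689-67285305, minus strand), stood at 555 and 484 in WT against 435 and 385 in cKO at 0 h. Its 4 h values were 199.7 and 177 for WT, with 270.0 and 283 for cKO. The groups of 0 h and 4 h did not overlap in coverage, whereas relative to the library median those of WT did. Relative to the library median it gave 0.00 in WT (SE 0.19, limma adjusted p = 0.986) and 0.64 in cKO (SE 0.19, limma adjusted p = 0.0352), against -1.46 and -0.57 on the deposited scale, both called. The centred call in cKO was near the threshold, and of 18 alternative settings 6 called it higher, 10 did not call it and 2, the deposited scale and equal summed coverage, called it lower. Without any 1 of the 4 cKO libraries the log2 fold change was 0.49 to 0.78 and its limma adjusted p ranged from 0.0554 to 0.156, and without either WT library of 0 h the fold was as before and the adjusted p 0.0549. With a mean coverage minimum of 5 the adjusted p was 0.0638, and with quantile normalization 0.251. The ratio of Nrbf2 to Atg14 was 1.43 ± 0.034 (SD, n = 2) in WT and 1.18 ± 0.19 in cKO at 0 h, and 2.27 ± 0.36 and 2.39 ± 0.12 at 4 h.

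Uvrag, the endosomal counterpart of Atg14 (chr7:98885021-99141141, minus strand), stood at 964 and 1019 in WT against 1050 and 1125 in cKO at 0 h. The 4 h libraries gave 133 and 162 for WT, with 206 and 224 for cKO. Its 4 h levels were all below its 0 h levels by a wide margin. On the opposite strand Uvrag shares 3616 bases with Gm45188, whose coverage was 0.00 to 34.1, and 3788 with Gm45187, at 0.00 to 5.13. Its centred log2 fold change was -1.29 in WT (SE 0.10, limma adjusted p = 0.000294) and -1.14 in cKO (SE 0.10, limma adjusted p = 0.000499), and mean coverage was 6.73-fold higher at 0 h in WT and 5.05-fold higher in cKO. Rubcn, the Rubicon gene (chr16:32821703-32877766, minus strand), showed the largest fall of the 8 genes under each of the scalings run. Its coverage at 0 h was 575 and 614 in WT against 411 and 456 in cKO. At 4 h the libraries gave 29.4 and 45.3 for WT, with 38.8 and 39.6 for cKO. Mean coverage was 15.9-fold higher at 0 h than at 4 h in WT and 11.1-fold higher in cKO. The centred log2 fold change was -2.56 in WT (SE 0.15, limma adjusted p = 0.000123) and -2.26 in cKO (SE 0.15, limma adjusted p = 0.000203). Rubcn shares 267 bases with Fyttd1 on the opposite strand, whose coverage was 462 to 1101, and reads within the bases shared by such pairs cannot be assigned.

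Ambra1, the Beclin 1-binding ubiquitin ligase adaptor (chr2:91730134-91918849, plus strand), stood at 485 and 545 in WT against 529 and 540 in cKO at 0 h. The 4 h libraries gave 358 and 363 for WT, with 585 and 563 for cKO. The 4 h libraries lay below the 0 h libraries in WT and above them in cKO. Relative to the library median it rose in both genotypes, by 0.96 in WT (SE 0.12, limma adjusted p = 0.00166) and 1.30 in cKO (SE 0.12, limma adjusted p = 0.000624). On the deposited scale the log2 fold change was -0.51 in WT (limma adjusted p = 0.00640) and 0.10 in cKO (limma adjusted p = 0.394). The falls of Pik3c3, Pik3r4, Uvrag and Rubcn in both genotypes, and that of Atg14 in WT, were called under all 18 alternative settings in each comparison, whereas the directions given for Becn1, Ambra1 and Nrbf2 relative to the library median were not kept on the deposited scale, with Ambra1 in cKO keeping its sign alone.

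**Figure D3:**
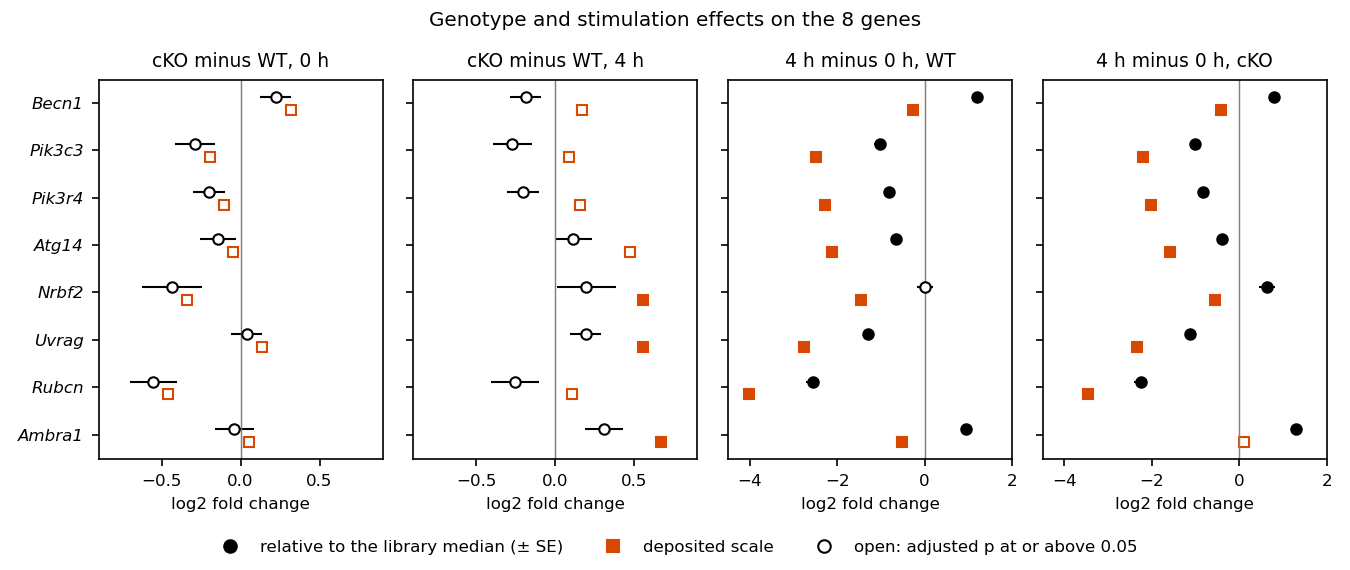
Log2 fold changes of the 8 genes for cKO against WT at 0 h and 4 h and for 4 h against 0 h in each genotype, with circles relative to the library median (bars are SE) and squares on the deposited scale; filled symbols have a limma adjusted p under 0.05. The centred effects of genotype are all open, and Rubcn has the lowest value in both stimulation panels on both scales.

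The make-up of the complex can be set out without regard to depth as the share of each gene in the summed coverage of all 8. This sum was 5397 ± 151 (SD, n = 2) in WT and 5362 ± 175 in cKO at 0 h, and 1971 ± 68.3 in WT and 2511 ± 19.2 in cKO at 4 h. Becn1 took 20.2% ± 0.58 in WT and 25.4% ± 0.28 in cKO at 0 h, and 45.9% ± 0.32 and 40.5% ± 0.52 at 4 h. Ambra1 took 9.53% ± 0.52 and 9.97% ± 0.18 at 0 h, and 18.3% ± 0.45 in WT and 22.9% ± 0.79 in cKO at 4 h. Uvrag went the other way, from 18.4% ± 0.22 in WT and 20.3% ± 0.33 in cKO to 7.46% ± 0.80 and 8.57% ± 0.45. Rubcn made up 11.0% ± 0.20 in WT and 8.07% ± 0.33 in cKO at 0 h and 1.88% ± 0.51 and 1.56% ± 0.010 at 4 h. The ratio of Atg14 to Uvrag, the subunits that tell complex I from complex II, was 0.367 ± 0.041 (SD, n = 2) in WT and 0.322 ± 0.0096 in cKO at 0 h, and 0.570 ± 0.039 in WT and 0.540 ± 0.014 in cKO at 4 h. Its 4 h libraries, from 0.530 to 0.598, were all above the 0 h libraries, from 0.315 to 0.396, and the genotypes overlapped at 4 h. The ratio of Rubcn to Uvrag was 0.599 ± 0.0037 in WT and 0.398 ± 0.0098 in cKO at 0 h, and 0.250 ± 0.041 and 0.182 ± 0.0083 at 4 h. Shares and ratios are of RNA coverage and not of protein, and all but the ratio of Atg14 to Uvrag were chosen after values were seen. They were not tested.

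**Figure D4:**
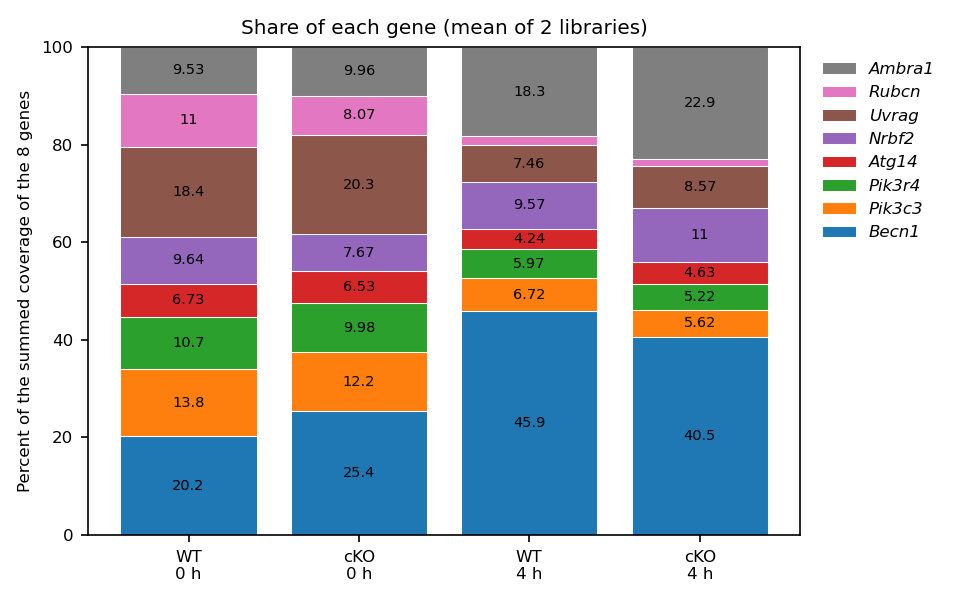
Stacked bars of the percent of the summed coverage taken by each of the 8 genes, as the mean of 2 libraries per group; the SDs are given in the text. Becn1 goes from 20.2% to 45.9% in WT and from 25.4% to 40.5% in cKO between 0 h and 4 h, while Uvrag and Rubcn shrink.

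The genotypes were compared at each time to see whether loss of Nudt21 changed the complex. None of the 8 genes was called in limma relative to the library median at either time. At 4 h, 0 of 8 genes passed, where 15.9% of all genes did, and 1 gene had an unadjusted p under 0.05 (Ambra1), as did 33.5% of all genes. At 0 h, 0 of 8 passed, where 4.96% of all genes did, and 1 gene had an unadjusted p under 0.05 (Rubcn), as did 21.9% of all genes. Groups did not overlap on the centred scale for 6 of 8 genes at 4 h and for 6 of 8 at 0 h, and this was also so for 64.0% and 59.7% of all genes tested. On the deposited scale, where the median fold change was above 0 at 4 h, 3 of the 8 were called higher and 0 lower at 4 h (Ambra1, Nrbf2 and Uvrag), where 19.6% of all genes were called higher and 3.38% lower.

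Ambra1 was the only member with an unadjusted p under 0.05 on the centred scale at 4 h. Its cKO libraries, at 585 and 563, lay above the WT libraries, at 358 and 363, and mean coverage was 1.59-fold higher in cKO. The centred log2 fold change was 0.31 (SE 0.12, limma adjusted p = 0.149) and that on the deposited scale 0.67 (limma adjusted p = 0.0141). The ratio of Ambra1 to Becn1, which is free of the scaling, was 0.563 ± 0.012 (SD, n = 2) in cKO and 0.399 ± 0.0070 in WT at 4 h, and 0.393 ± 0.0028 in cKO and 0.472 ± 0.039 in WT at 0 h. Both cKO libraries were thus above both WT libraries at 4 h and below them at 0 h in this ratio. Uvrag and Nrbf2 had 1.46-fold and 1.47-fold higher mean coverage in cKO at 4 h, with centred log2 fold changes of 0.19 (SE 0.10, limma adjusted p = 0.248) and 0.20 (SE 0.19, limma adjusted p = 0.517) and deposited ones of 0.55 (limma adjusted p = 0.0428) and 0.56 (limma adjusted p = 0.0394). The remaining centred values at 4 h ran from -0.27 in Pik3c3 to 0.11 in Atg14, and those of Becn1, Pik3c3, Pik3r4 and Rubcn, negative after centring, were positive on the deposited scale.

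At 0 h, Rubcn was the only member with an unadjusted p under 0.05 on this scale. Its cKO libraries, at 411 and 456, lay below the WT libraries, at 575 and 614. The centred log2 fold change was -0.55 (SE 0.15, limma adjusted p = 0.118) and that on the deposited scale -0.46 (limma adjusted p = 0.308). It was called only under quantile normalization (-0.69, limma adjusted p = 0.0452). Nrbf2 gave -0.43 (SE 0.19, limma adjusted p = 0.271) and Pik3c3 -0.29 (SE 0.13, limma adjusted p = 0.275), with both cKO libraries below both WT libraries. Becn1 gave 0.22 (SE 0.10, limma adjusted p = 0.284), with both cKO libraries above both WT libraries, and Pik3r4, Atg14, Ambra1 and Uvrag lay between -0.20 and 0.04. The interaction, which asks whether the genotype effect differed between the times, was called for 0 of 8 genes, where it was called for 2.12% of all genes, and 1 gene had an unadjusted p under 0.05 (Becn1), as did 21.6% of all genes. On the centred scale the interaction was 0.63 for Nrbf2 (SE 0.27, limma adjusted p = 0.261), -0.41 for Becn1 (SE 0.14, limma adjusted p = 0.189) and 0.35 for Ambra1 (SE 0.17, limma adjusted p = 0.313), and on the deposited scale 0.90, -0.14 and 0.61. With 2 libraries per group, these tests do not show that the genotypes are alike.

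The genes that act around the complex were followed as 8 lists with 75 genes in all, of which 73 could be tested. At 4 h, 6 of the 73 were called higher and 7 lower in cKO, against 7.2% and 8.71% of all genes tested. On the deposited scale 28 were higher and 3 lower, where 19.6% and 3.38% of all genes were. Of the 5 genes of the upstream ULK kinase complex, 3 were called higher and 0 lower, among them Ulk2 (log2 fold change 1.25, SE 0.11, limma adjusted p = 0.00605) and the scaffold Atg13 (0.87, SE 0.11, limma adjusted p = 0.0128). Of the 11 PI3P phosphatases and PI3P 5-kinase subunits, 4 were called lower and 0 higher, including the myotubularin Mtmr6 (-0.87, SE 0.094, limma adjusted p = 0.00996), and 2 were higher and 1 lower on the deposited scale. Of the 17 proteins that bind or modify Beclin 1, 2 were called lower and 0 higher, against 2 lower and 6 higher on the deposited scale. The 2 were Bcl2l1, the Bcl-xL gene whose product binds the BH3 domain of Beclin 1 (-1.12, SE 0.11, limma adjusted p = 0.00903), and the Rubicon relative Rubcnl (-0.96, SE 0.13, limma adjusted p = 0.0144). Of the 14 PI3P-binding effectors 0 were called. An unadjusted p under 0.05 was found for 3 of them, where it was found for 33.5% of all genes, and the deposited scale gave 6 higher. Neither of the 2 other PI3P kinases was called on either scale. Of the 12 fusion partners of Uvrag and Atg14, 1 was higher, Rint1 (0.85, SE 0.14, limma adjusted p = 0.0235), and the deposited scale gave 7 higher. Of the 5 NOX2 subunits 1 was higher, against 2 on the deposited scale. Of the 7 partners and substrates of Ambra1, 1 was higher and 1 lower, against 1 and 0. These named genes kept their signs on the deposited scale, with equal summed coverage and with quantile normalization. Ulk2 and Bcl2l1 were called whichever single library was left out (limma adjusted p of at most 0.0422 and 0.0444). The calls of Atg13 (0.0758) and Mtmr6 (0.0620) were lost without cKO replicate 4 at 4 h, that of Rubcnl without either cKO library of 4 h (up to 0.0740) and that of Rint1 without any 1 cKO library of either time (up to 0.120). When the fit held only the 4 libraries of 4 h, 0 of the 73 were called in either direction, Ulk2 and Bcl2l1 included, while 130 of all 16284 genes were called higher and 58 lower. Without cKO replicate 4 at 4 h, 1 of the 73 was called higher and 1 lower (269 and 226 of all genes), and without replicate 3, 3 were higher and 2 lower (470 and 437). Without either cKO library of 0 h, 3 were higher and 3 lower (516 and 522), and without WT replicate 1 at 4 h, 3 were lower (860).

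At 0 h, 2 of the 73 genes were called lower and 0 higher, against 2.17% and 2.79% of all genes. The deposited scale gave 1 lower and 2 higher, against 1.66% and 3.42% of all genes, and quantile normalization 4 lower and 4 higher, against 4.46% and 4.59%. Rubcnl gave -1.17 (SE 0.13, limma adjusted p = 0.0165), its mean coverage being 42.8 in cKO and 90.2 in WT, and cyclin D1, Ccnd1, gave -0.85 (SE 0.14, limma adjusted p = 0.0429), with an adjusted p of 0.102 on the deposited scale. The call of Ccnd1 held in 2 of the 8 fits that left out 1 library, those without a WT library of 4 h (limma adjusted p up to 0.194 in the others), and that of Rubcnl in 5 of 8 (up to 0.0679). A fit of only the 4 libraries of 0 h called 0 of the 73, and 112 of all genes higher and 51 lower. Without any 1 of the WT libraries of 0 h, or without cKO replicate 4 at 0 h, 0 of the 73 were called lower. Without either cKO library of 4 h, 1 was. The interaction was called for 1 gene, Bcl2l1 (-1.10, SE 0.16, limma adjusted p = 0.0492), whose mean coverage was 794 in WT and 834 in cKO at 0 h and 1037 and 611 at 4 h. Without centring this interaction had a limma adjusted p of 0.0958, and with any single library left out it was not called (0.0692 to 0.165).

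With stimulation, 41 of the 73 were called higher and 18 lower in WT, and 38 higher and 14 lower in cKO, relative to the library median, where 37.3% and 22.9% of all genes were in WT and 35.5% and 23.1% in cKO. On the deposited scale the counts were 10 higher and 51 lower in WT and 12 and 49 in cKO, and 58.2% and 54.5% of all genes were lower. Of the 17 Beclin 1 binding and modifying proteins, 13 were higher and 1 lower in WT, and 12 and 1 in cKO, and 4 were higher and 8 lower in each genotype on the deposited scale. The NOX2 subunits, which act with Rubicon in LC3-associated phagocytosis, were called higher in 5 of 5 cases in WT and 4 of 5 in cKO, while the deposited scale gave 1 higher and 3 lower in WT and 2 higher and 2 lower in cKO. The ULK complex gave 3 lower and 0 higher in WT and 2 lower and 0 higher in cKO, against 5 of 5 lower in each genotype on the deposited scale. Among the largest changes in WT were Plekhm1, a Rab7 effector (-3.38), the Beclin 1 kinase Dapk1 (-2.18) and Ulk2 (-1.95) on the lower side, and cyclin D2, Ccnd2 (8.30), Tnfaip3, the A20 deubiquitinase (6.85), and Mtmr7 (6.03) on the higher side. In cKO these were Plekhm1 (-2.84), Dapk1 (-1.39) and the HOPS subunit Vps39 (-1.36), and Ccnd2 (9.21), Tnfaip3 (6.89) and Mtmr7 (4.87). Their limma adjusted p ranged from 1.55e-05 to 0.000383, and their signs were kept under each of the scalings run. Mtmr7 and Ccnd2 had a mean coverage of 7.88 and 19.4 in WT at 0 h.

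Genes with the most similar pattern were sought by Pearson's r of centred log2 coverage over the 8 libraries, among 12016 genes whose coverage averaged at least 10. All 8 libraries fall into 2 times that differ for most genes, so that high values are common. The closest were Klhdc4 for Becn1 (r = 0.9995), Mob3a for Pik3c3 (0.995), Rgp1 for Pik3r4 (0.997), Kctd7 for Atg14 (0.989), Plekhm1 for Uvrag (0.9995), Slx4ip for Ambra1 (0.998) and Gtf2i for Rubcn (0.999). Nrbf2 had no neighbour as close, its best being Rce1 (0.959). Among the 8 genes themselves, the highest value was that of Pik3c3 with Pik3r4 (r = 0.993), followed by Pik3r4 with Rubcn (0.986). Mob3a was closer to both kinase subunits, at 0.995 with Pik3c3 and 0.997 with Pik3r4. These are descriptions over 8 libraries that share 2 times and 2 genotypes.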

How the data were processed

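RNA-seq of 8 BMDM libraries was analysed. Per the labels and the study's methods, the authors aligned paired-end reads to GRCm38 with HISAT2 2.2.1 and quantified genes with StringTie 2.1.7. The authors deposited 1 signal value per gene and library, in 1 table for each time. The tables name no unit. The values fit a coverage averaged over the bases of a gene, and nothing in them points to scaling between libraries. The labels state a yield of over 250000000 reads for each sample, but the number of reads behind a value is not given, so no counting intervals are given. The tables also hold the authors' fold changes and p-values, which were not used. All value columns were used (0 unused).

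The design had been written for normalized values or counts, and as coverage is not a count the limma fit planned for normalized values was used. Log2(coverage + 0.1) of 16284 genes with a mean of at least 0.5 was centred on the median level of each library and fitted with limma 3.58.1 (R 4.3.3) over 4 groups. Benjamini-Hochberg adjustment covered all 16284 genes. A pseudocount understates changes of low genes. The procedure was tested on simulated data. Other settings were tried for scaling, low-value filter, pseudocount, variance model, choice of libraries, a replicate block and the threshold of the study (change of over 1.5-fold, unadjusted p below 0.05).

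The 8 genes, the other lists and the markers were chosen with earlier results of these data known. All 8 genes were described in each comparison. From the other lists, at most 3 called changes in each direction were named per comparison, and for each of the 8 genes the 2 most similar genes were sought, of which the closest is named. The libraries come from pooled cultures, and p-values measure the spread between the libraries of a group. Sample numbers recur at both times within a genotype. The tests of stimulation treated such libraries as unpaired, apart from the replicate block. Gene positions and 3'UTRs were taken from GENCODE M21, which matched 16076 of the 16284 symbols, and promoters from RefSeq (GRCm38.p6). PDUI values and read-level data were not analysed here.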

Additional observations from a re-analysis of the deposited data

How the results depend on the processing

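The scaling of the libraries, which moves the median gene, turned the direction of Becn1 with stimulation in both genotypes, of Ambra1 in WT and of Nrbf2 in cKO, while Ambra1 in cKO kept its sign. On the deposited scale 3 members were called higher in cKO at 4 h in place of 0 (3185 of all 16284 genes). With stimulation it gave 0 higher in WT in place of 2 (2100 of all genes), with 8 lower in place of 5 (9472). It gave 0 higher in cKO in place of 3 (2369). With equal summed coverage 0 were higher with stimulation in either genotype (2170 of all genes in WT and 2313 in cKO). The number lower was 7 in each (9259 and 8997 of all genes). With quantile normalization 1 was higher in each (3931 and 3751), and 1 was lower in cKO against WT at 0 h (727). Log2 fold changes of cKO against WT that turned on the deposited scale were 0.172 for Becn1, 0.0885 for Pik3c3, 0.157 for Pik3r4 and 0.104 for Rubcn at 4 h, and 0.0557 for Ambra1 at 0 h. With stimulation in WT, values turned to -0.272 (deposited) and -0.222 (equal sum) for Becn1, to -0.512 and -0.462 for Ambra1 and to -0.274 and -0.224 for Nudt21. Nrbf2 in WT, near 0, went to -1.46, -1.41, -0.477 with quantile normalization, -0.228 with a mean of at least 5 and -0.00619 with a pseudocount of 1. With stimulation in cKO, values turned to -0.417, -0.456 and, with quantile normalization, -0.208 for Becn1, to -0.566 and -0.605 for Nrbf2 and to -0.367 and -0.406 for Nudt21. The interaction of Pik3r4, near 0, turned to 0.260, 0.171, 0.0941 with quantile normalization, 0.0166 with a mean of at least 5 and 0.00802 with no filter, and that of Nudt21 to 0.372 with quantile normalization. The cause of these turns other than by scaling was not tested.

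When single libraries were left out, with the lone library of a group assumed to vary like the other groups, values near 0 changed sign, with ranges of -0.00985 to 0.403 for Nrbf2 in cKO against WT at 4 h, of -0.00926 to 0.0867 for Uvrag and -0.130 to 0.0528 for Ambra1 at 0 h, and of -0.202 to 0.211 for Nrbf2 with stimulation in WT. The interaction ranged from -0.0831 to 0.118 for Pik3c3 and from -0.105 to 0.0945 for Pik3r4. The replicate numbers recur at both times within a genotype, and deviations of same-numbered libraries correlated at 0.0204 in WT and 0.0237 in cKO. With 2 libraries per group, the deviations of a group mirror each other, so this cannot decide whether such libraries share cells. A fit with the replicate number as a block called 2 members higher and 5 lower in WT, as without it (5652 and 3336 of all genes). In cKO it called 2 higher and 4 lower (5207 and 3303 of all genes), where Atg14 (-0.391, limma adjusted p = 0.0643) and Nrbf2 (0.635, limma adjusted p = 0.0539) were not called. For the interaction this fit called 0 of all genes in either direction, Bcl2l1 included, against 174 higher and 172 lower without it. The genotypes share no replicate number. Of the 73 surrounding genes at 4 h, where 6 were higher and 7 lower in cKO, equal summed coverage called 11 higher and 4 lower (1502 and 720 of all genes), an intensity trend in the variance 13 and 9 (1727 and 2182), a mean of at least 5 called 10 and 9 (1649 and 2010), no filter 6 and 3 (853 and 776) and the threshold of the study 8 and 4 (1609 and 1729). At 0 h the intensity trend called 7 higher and 3 lower (925 and 781). With stimulation, quantile normalization called 18 higher and 37 lower in WT (3931 and 5380 of all genes) and 14 and 39 in cKO (3751 and 5434). Over all settings, the number of all genes called in cKO against WT ran from 130 to 3185 higher and from 58 to 2182 lower at 4 h, and from 112 to 1041 and from 51 to 1011 at 0 h. With 2 libraries per group the spread itself is poorly known, and read counts per gene were not used here.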
